A study of Mus musculus with 17 samples.

Results

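The mitochondrial respiratory chain was followed here through 73 nuclear genes in the liver of Afp knockout mice. The genes were those whose platform symbol starts with Nduf, Uqcr, Atp5 or Cox followed by a digit from 4 to 8, together with Sdha to Sdhd and Cyc1, and the rule used no measured value. They were 73 of the 9030 named genes and lay on 100 of 12771 named probes. By role they comprised 27 subunits and 4 assembly factors of complex I, 4 subunits of complex II, 8 of complex III, 15 of complex IV and 15 of complex V. No probe carried the symbol Cycs, and the subunits encoded in mitochondrial DNA were not analysed here.

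Liver RNA was hybridised to 2-colour cDNA arrays, with the RNA of 1 mutant in one channel and pooled RNA of wild-type livers in the other. The adults were 6 Afp knockout males aged 17 weeks, set against a pool of 6 wild-type males of the same age on 11 arrays. Of these animals, 5 were measured with both dye orientations, and animal 5 only with its own RNA in Cy5. The 6 fetal arrays carried 3 male and 3 female knockout embryos, numbered here 1 to 3 and 4 to 6, always with the mutant in Cy5. Their pool held 4 wild-type animals by the labels, while the protocol text speaks of 6 controls. The labels called that pool male on the arrays of embryos 1 and 2 and female on the others, and they gave embryonic day 7.5 for tissue named fetal liver, a day that was not checked. The labels name neither the strain nor the way the allele was made. The knockout is not described as limited to a cell type. Wild-type livers were measured only as pools, so the tests leave out the spread between wild-type animals.

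Each array gave between 20078 and 20697 values, and the number of arrays limits the precision. All values are log2 ratios of mutant over pool, where 0 means equal signal in both channels and 1 means a 2-fold higher signal of the mutant. The labels do not say whether columns with the mutant in Cy3 had been turned to mutant over pool, and the direction given here is likely rather than stated. Fetal rows were named with a shift of 11 rows, also inferred from the values. Afp lay between -8.79 and -8.11 in the 6 embryos and between -0.19 and 0.34 in the adults, but the fetal value is placed on Afp by that inferred shift, so it is no independent check of the label, and the adult values do not show the knockout. A ratio gives no level, so the presence of hepatocytes or of any other cell type could not be read from it, and fewer cells of a type and less RNA per cell cannot be told apart.

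The respiratory chain sits in the inner mitochondrial membrane. Complex I takes electrons from NADH and complex II from succinate, both hand them to ubiquinone, complex III passes them to cytochrome c, and complex IV passes them to oxygen. Complexes I, III and IV pump protons, and complex V, the ATP synthase, uses the proton gradient to make ATP. Hepatocytes are rich in mitochondria and spend this ATP on gluconeogenesis, urea synthesis and protein secretion.

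Many of these nuclear genes are known for promoters with sites for the nuclear respiratory factors NRF1 and NRF2, the latter an ETS family factor also called GABP, and for YY1. RefSeq promoters (GRCm38.p6, 250 bases before to 50 after the start) were found for 61 of the 73 genes and searched on both strands. The NRF1 palindrome, GCGC then any base then TGCGC, stood in 14 of 61 (23.0%), against 5.19% of 27025 genes. CCGGAAG, an ETS core, stood in 16 (26.2%, against 9.93%), and AAGATGGC, a YY1 motif, in 9 (14.8%, against 3.19%). TCAAGGTCA, an ERR motif, stood in 2 (3.28%, against 0.466%), CCAAT in 30 (49.2%, against 41.1%) and TATAAA in 8 (13.1%, against 15.7%). The upstream bases of 4 genes are shown, with NRF1 and ETS matches in capitals. Sdhd, on the minus strand at chr9:50603850-50604099, holds both motifs, and Atp5k, on the minus strand at chr5:108434400-108434649, holds the palindrome. Ndufb7, on the plus strand at chr8:83566508-83566757, had the lowest fetal mean of the 73 genes, and Uqcr11, on the minus strand at chr10:80406822-80407071, lay above 0 in 6 of 6 embryos.
Sdhd: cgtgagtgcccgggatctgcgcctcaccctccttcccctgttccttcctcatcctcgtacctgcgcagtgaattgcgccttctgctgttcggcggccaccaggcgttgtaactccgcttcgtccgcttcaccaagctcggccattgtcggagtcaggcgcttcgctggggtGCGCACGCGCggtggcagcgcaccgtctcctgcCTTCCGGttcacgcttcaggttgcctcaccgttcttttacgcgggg
Atp5k: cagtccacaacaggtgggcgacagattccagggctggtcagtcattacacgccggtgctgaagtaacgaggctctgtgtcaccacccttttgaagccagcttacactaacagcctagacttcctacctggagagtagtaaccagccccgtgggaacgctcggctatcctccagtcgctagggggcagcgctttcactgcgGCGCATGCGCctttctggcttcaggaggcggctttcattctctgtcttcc
Ndufb7: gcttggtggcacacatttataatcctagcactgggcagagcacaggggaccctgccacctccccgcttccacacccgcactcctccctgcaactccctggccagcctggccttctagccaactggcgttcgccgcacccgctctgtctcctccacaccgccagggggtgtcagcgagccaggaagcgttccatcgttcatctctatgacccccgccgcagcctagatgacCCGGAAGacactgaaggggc
Uqcr11: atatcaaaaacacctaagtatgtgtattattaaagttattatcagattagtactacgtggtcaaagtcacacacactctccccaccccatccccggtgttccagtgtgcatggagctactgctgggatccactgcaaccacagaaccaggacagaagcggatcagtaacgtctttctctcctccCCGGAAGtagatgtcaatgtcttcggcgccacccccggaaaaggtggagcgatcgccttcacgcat
The ETS match begins 20 bases before the start in Ndufb7 and 66 bases before it in Uqcr11. Genes with the NRF1 motif had a median of -0.22 in the adults, with 12 of 14 below 0, and those without it -0.13, with 35 of 47 below 0. Their fetal medians were 0.10 and 0.12. For the ETS core the adult medians were -0.15 with and -0.15 without it, and the fetal medians 0.15 and 0.11. A match describes these letters only.

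In adult mutant liver the chain stood slightly below the pool as a group, but no gene of it passed the test. Of the 73 genes, 57 had a mean below 0, and their median was -0.15, against 0.0081 over all 17039 features tested, of which 48.1% lay below 0. At limma's Benjamini-Hochberg adjusted p of 0.05, 0 of 73 genes passed, and so did 0 of all features (0%). At an unadjusted p under 0.05, 15 genes lay below 0 and 0 above, or 20.5%, against 7.71% of all features, 4.35% below and 3.36% above. The medians were -0.12 for complex I (21 of 27 genes below 0), -0.25 for complex II (4 of 4), -0.22 for complex III (6 of 8), -0.18 for complex IV (12 of 15) and -0.22 for complex V (13 of 15). The 4 assembly factors of complex I had a median of 0.11, with 1 below 0. The 95% interval of a gene's mean reached a median of 0.32 to either side, so most shifts of the size seen could not be resolved.

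**Figure D1:**
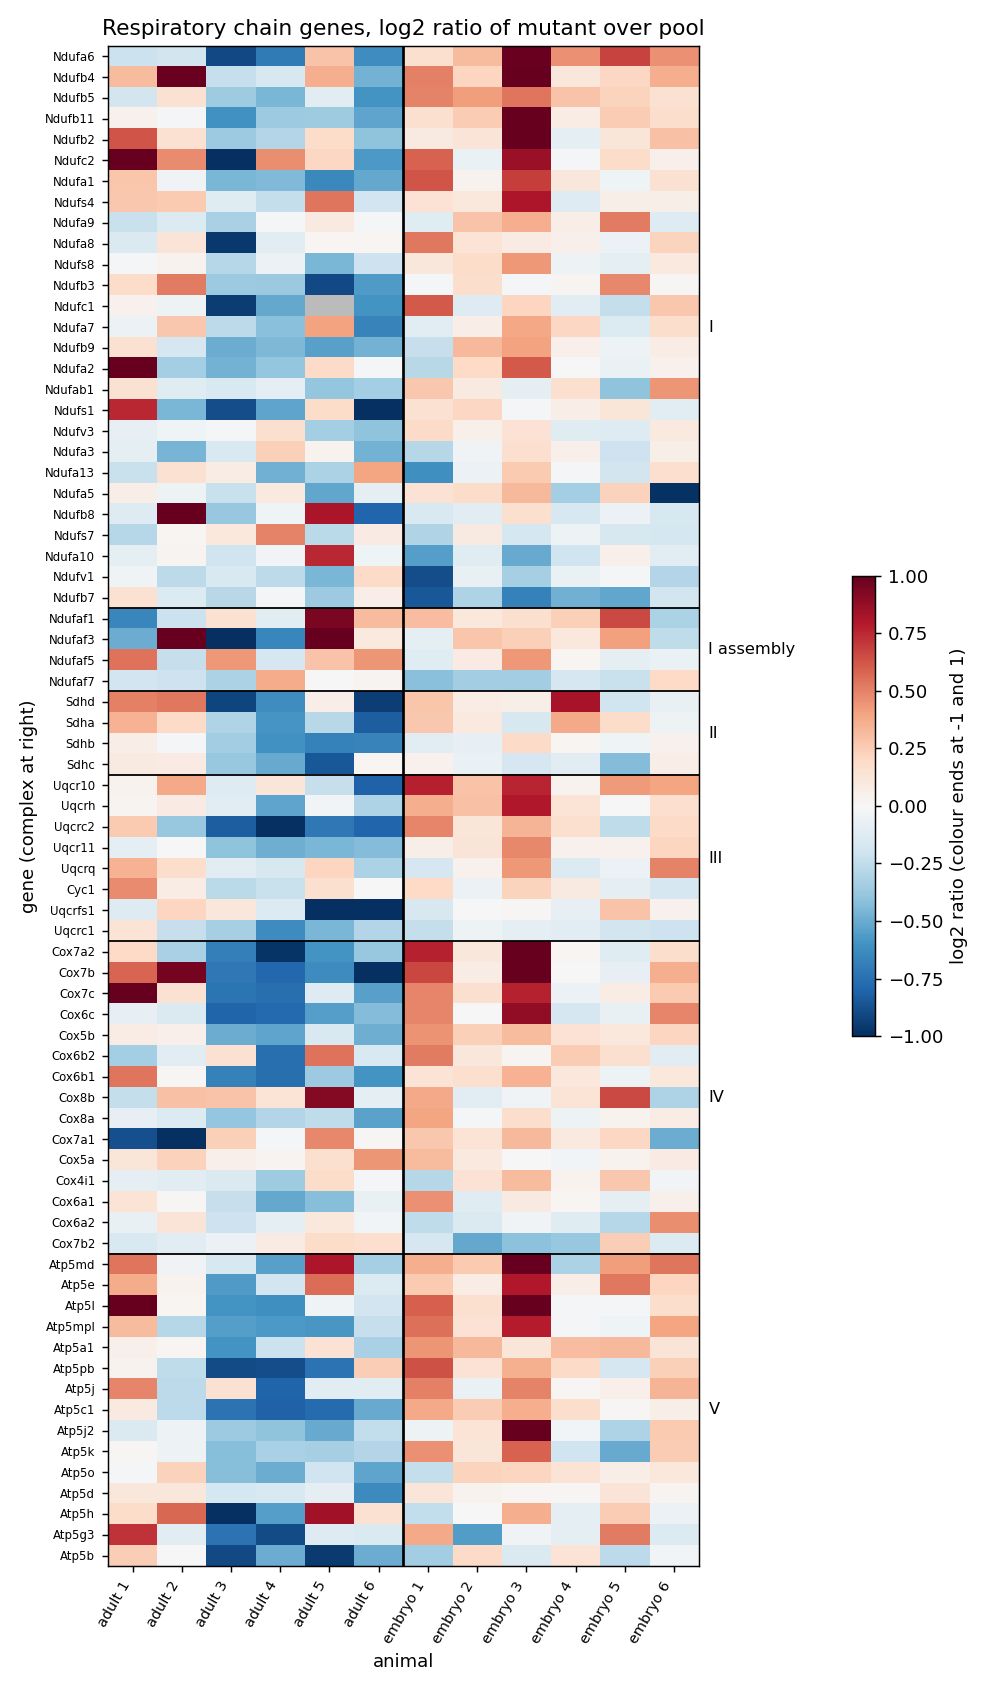
Heat map of log2 ratios (mutant over pool) for the 73 genes, 1 row each, ordered within each complex by fetal mean, in 6 adults and 6 embryos, 1 column each; red is above 0, blue below, grey has no value, and colour ends at -1 and 1. Adults 3, 4 and 6 are mostly blue, with 63, 63 and 58 genes below 0, and embryo 3 is the reddest column, with 57 genes above 0.

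The spread between adults was as large as the shift of the group, since the 6 animal medians had a mean of -0.18 ± 0.20 (SD, n = 6). The median of the 73 genes was 0.070, 0.0055, -0.36, -0.39, -0.12 and -0.32 in animals 1 to 6, so animals 1 and 2 lay at or just above the pool and animals 3, 4 and 6 clearly below it. Over all features the 6 medians stayed between -0.059 and 0.031. Animal 1 held the highest value for 32 of the 72 genes with a value in all 6 animals, and animal 3 for 0. Animals 1 and 2 lay above animals 3, 4 and 6 on both sets of arrays, a split that would reverse in Cy3 if those columns were turned: with the mutant in Cy5 the medians of animals 1, 2, 3, 4 and 6 were 0.18, -0.015, -0.35, -0.27 and -0.28, and with the mutant in Cy3, as deposited, 0.022, -0.081, -0.44, -0.50 and -0.36. Hepatocyte markers were low in the same animals. Of 15 such genes 14 had a mean below 0, with a median of -0.45, and the median of the list was 0.18, -0.083, -0.75, -0.77, -0.24 and -0.72 in animals 1 to 6. Endothelial markers lay below 0 in 5 of 6 genes, with a median of -0.35 and animal medians of -0.23, -0.16, -0.47, -0.34, 0.12 and -0.38, again low in animals 3, 4 and 6. Erythroid markers (6 of 7 below 0) had animal medians from -0.35 to -0.059. The medians of the other lists lay nearer to 0, with striated muscle at -0.0055, brown fat at -0.011, kidney at -0.022, exocrine pancreas at -0.028, Kupffer cells and granulocytes at 0.048 and cholangiocytes at 0.090. The brown fat list (9 genes) includes Cox7a1 and Cox8b, which also belong to the chain. The part of the marker lists in the values of the chain was not tested.

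**Figure D2:**
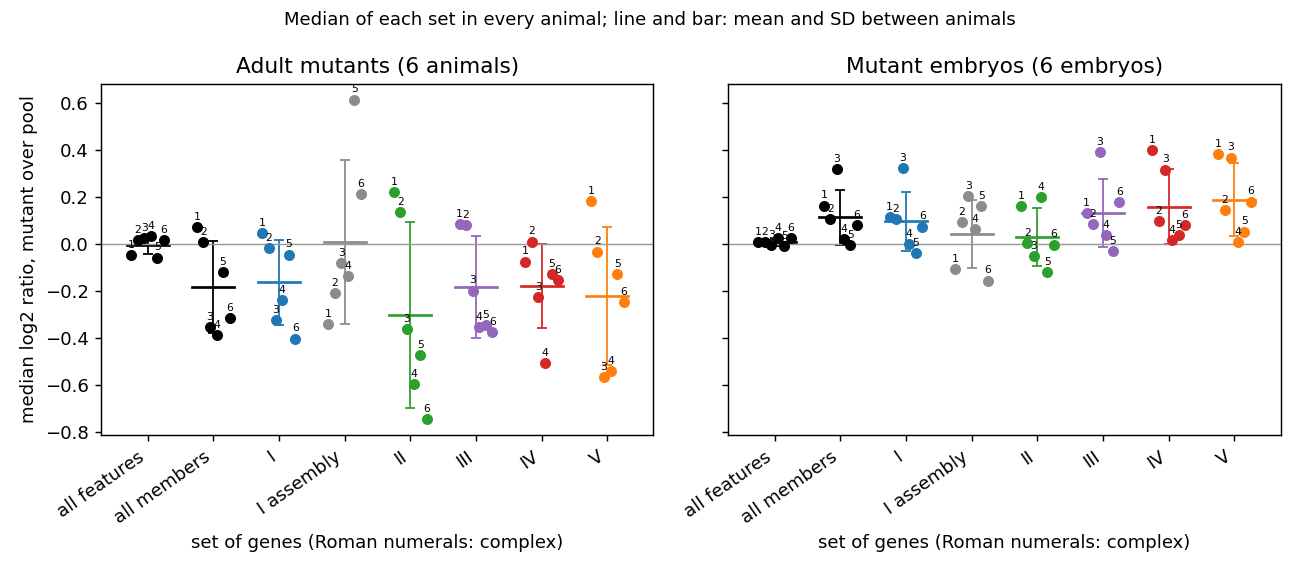
Median log2 ratio (mutant over pool) of each set of genes in every animal, adults at left and embryos at right; points are animals with their numbers, lines the mean over 6 animals and bars the SD. In the adults complexes I to V have means from -0.30 (complex II) to -0.17 (complex I) with animals spread widely, and in the embryos from 0.030 (complex II) to 0.19 (complex V).

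Complex I, the NADH dehydrogenase, is the largest complex, with a catalytic core and a shell of accessory subunits. Among its core subunits Ndufs1, which carries iron-sulfur clusters, stood at 0.76, -0.46, -0.88, -0.53, 0.18 and -1.03 in adults 1 to 6. Only animals 1 and 5 were above 0, and the mean of -0.33 ± 0.68 (SD, n = 6) did not pass (limma adjusted p = 0.709). Ndufv1, the subunit that binds NADH, stood at -0.033, -0.26, -0.15, -0.26, -0.46 and 0.19 (mean -0.16 ± 0.22). The iron-sulfur subunit Ndufs7 stood at -0.28, 0.018, 0.11, 0.49, -0.27 and 0.080 (mean 0.025 ± 0.29), and its neighbour in the complex Ndufs8 at -0.015, 0.032, -0.28, -0.058, -0.46 and -0.21 (mean -0.16 ± 0.19). These 3 lay close to the pool, with animals on both sides of 0. The accessory subunits with the smallest p below 0 were Ndufb9, Ndufb11 and Ndufa6. Ndufb9 stood at 0.15, -0.17, -0.49, -0.45, -0.55 and -0.47, above 0 in animal 1 alone (mean -0.33 ± 0.27, limma adjusted p = 0.639). Ndufb11, encoded on the X chromosome, stood at 0.045, -0.019, -0.61, -0.36, -0.36 and -0.53, again above 0 in animal 1 alone (mean -0.30 ± 0.27, limma adjusted p = 0.639). Ndufa6 stood at -0.22, -0.18, -0.90, -0.71, 0.29 and -0.62, with animal 5 as the only value above 0 (mean -0.39 ± 0.44, limma adjusted p = 0.643). Animal 5 was measured in Cy5 alone, and with the mutant in Cy5 animals 1 and 2 also lay above 0, at 0.14 and 0.34.

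Means above 0 in complex I rested on single animals in part. Ndufc2 had a mean of 0.62 ± 2.67, with animal 1 at 5.58 and animals 2 to 6 at 0.47, -2.44, 0.46, 0.21 and -0.57. Ndufb8 had a mean of 0.56 ± 1.71, with animal 2 at 3.87 and the others between -0.79 and 0.81. In each gene 1 of 2 probes held a value beyond 10 on an array with the mutant in Cy5 (16.01 for Ndufc2 and 16.37 for Ndufb8). Without these 2 genes the median over the remaining 71 was -0.16. Ndufb4, an accessory subunit, stood at 0.32, 0.98, -0.23, -0.16, 0.36 and -0.48, and its mean of 0.13 ± 0.53 did not pass (limma adjusted p = 0.838). The other accessory subunits had adult means from -0.41 (Ndufc1) to 0.084 (Ndufs4), with Ndufa1, encoded on the X chromosome, at -0.30 ± 0.35, Ndufb3 at -0.25 ± 0.52, Ndufb5 at -0.26 ± 0.27, Ndufb7 at -0.10 ± 0.20 and Ndufa10 at 0.069 ± 0.34. Ndufa2, Ndufa3, Ndufa5, Ndufa7, Ndufa8, Ndufa9, Ndufa13, Ndufab1, Ndufb2 and Ndufv3 all lay between -0.18 and -0.00075.

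The assembly factors of complex I, which build the complex without staying in it, had animal medians from -0.34 to 0.61. With the mutant in Cy5 these medians ran from -0.23 to 0.61, and in Cy3, as deposited, from -0.60 to -0.031. Ndufaf3 stood at -0.50, 1.88, -1.43, -0.66, 1.52 and 0.10, above 0 in animals 2, 5 and 6, for a mean of 0.15 ± 1.297. All values of animal 5 came from Cy5 alone, as did that of animal 2 for Ndufaf3, whose animals 1 and 4 had only Cy3. Animal and dye orientation cannot be told apart in these values. Ndufaf1 stood at -0.65, -0.22, 0.15, -0.10, 0.94 and 0.32 (mean 0.073 ± 0.54), and Ndufaf5 at 0.54, -0.23, 0.43, -0.17, 0.29 and 0.44 (mean 0.22 ± 0.33). Ndufaf7 had a mean of -0.053 ± 0.25. None of the 4 passed, with limma adjusted p between 0.679 and 0.920.

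Complex II, succinate dehydrogenase, also works in the citric acid cycle and is encoded wholly in the nucleus. Sdha, the flavoprotein subunit that oxidises succinate, stood at 0.34, 0.19, -0.30, -0.59, -0.27 and -0.82 in adults 1 to 6, with a mean of -0.24 ± 0.44. Sdhb, the iron-sulfur subunit, stood at 0.070, -0.018, -0.35, -0.61, -0.67 and -0.67, with a mean of -0.37 ± 0.33 (limma adjusted p = 0.639). Both were above 0 in animal 1 and clearly below in animals 3 to 6. The membrane anchors followed: Sdhc stood at 0.091, 0.082, -0.38, -0.50, -0.85 and 0.016 and had a mean of -0.26 ± 0.38. Sdhd stood at 0.51, 0.52, -0.92, -0.62, 0.063 and -0.94 and had a mean of -0.23 ± 0.68. In the 4 genes together animals 1 and 2 lay above 0 in all but 1 value, and animals 3 and 4 below 0 in all.

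Complex III, the cytochrome bc1 complex, held the gene with the lowest adult mean, with the direction taken here. Uqcrc2, a core protein, stood at 0.26, -0.38, -0.83, -1.104, -0.72 and -0.79, above 0 in animal 1 and below in animals 2 to 6 (mean -0.59 ± 0.48, limma adjusted p = 0.639, 95% interval -1.005 to -0.18). With the Cy3 arrays turned its mean was -0.26, and Uqcrfs1 had the lowest, at -0.55. Uqcrc1, the partner core protein of Uqcrc2, stood at 0.14, -0.23, -0.33, -0.63, -0.46 and -0.29 (mean -0.30 ± 0.26), with the same single animal above 0. The small subunit Uqcr11 stood at -0.092, 0.0015, -0.41, -0.48, -0.46 and -0.43 for a mean of -0.31 ± 0.21 (limma adjusted p = 0.639). The Rieske iron-sulfur protein Uqcrfs1 stood at -0.13, 0.21, 0.12, -0.14, -1.98 and -1.02. Its mean of -0.49 ± 0.85 came mainly from animals 5 and 6, and it did not pass (limma adjusted p = 0.673). Cyc1, which encodes cytochrome c1, stood at 0.47, 0.076, -0.27, -0.23, 0.16 and -0.0045 (mean 0.035 ± 0.27), and the small subunit Uqcrq at 0.35, 0.17, -0.11, -0.16, 0.22 and -0.32 (mean 0.024 ± 0.26). In both, animals 1, 2 and 5 lay above 0 and animals 3, 4 and 6 below. Uqcrh and Uqcr10, further small subunits, had means of -0.14 ± 0.23 and -0.11 ± 0.40.

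Complex IV, cytochrome c oxidase, has nuclear subunits that surround a core made in mitochondria, several of them as liver and muscle isoforms. Cox6c, a small subunit, had the smallest p of the 73 genes with the direction taken here. It stood at -0.081, -0.15, -0.80, -0.77, -0.55 and -0.43 in adults 1 to 6, below 0 in every animal (mean -0.46 ± 0.30, unadjusted p = 0.00743, limma adjusted p = 0.639). With the Cy3 arrays turned in sign its mean was -0.13 (limma adjusted p = 0.49), and other genes had the smallest p. Cox7a2 stood at 0.20, -0.32, -0.68, -0.98, -0.60 and -0.38 and Cox8a at -0.086, -0.14, -0.39, -0.29, -0.25 and -0.53. Their means were -0.46 ± 0.40 and -0.28 ± 0.16, with limma adjusted p = 0.639 for both, and Cox8a was below 0 in 6 of 6. Cox5a, a subunit on the matrix side, stood at 0.12, 0.23, 0.052, 0.030, 0.16 and 0.44 and was the only gene above 0 in 6 of 6 animals (mean 0.17 ± 0.15, limma adjusted p = 0.66). With the Cy3 arrays turned, animal 2 stood at -0.086 and the mean was 0.27.

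In the isoform pairs, the liver-type genes had the lower mean over both dyes, but this did not hold in each orientation and was not tested. With the mutant in Cy5 Cox6a1 and Cox6a2 stood alike, at -0.37 ± 0.42 and -0.38 ± 0.30, and in Cy3 Cox8a lay above Cox8b, at -0.18 ± 0.25 and -0.69 ± 0.19. The liver-type Cox6a1 stood at 0.14, 0.0085, -0.23, -0.51, -0.43 and -0.076 (mean -0.18 ± 0.25) and the muscle-type Cox6a2 at -0.076, 0.13, -0.21, -0.093, 0.11 and -0.029 (mean -0.028 ± 0.13). Against the values of Cox7a2 given above, the muscle-type Cox7a1 stood at -0.88, -1.43, 0.24, -0.011, 0.48 and 0.015 (mean -0.26 ± 0.73), low in animals 1 and 2, and its 2 probes disagreed in sign. Against those of Cox8a, the muscle-type Cox8b stood at -0.24, 0.29, 0.28, 0.14, 0.92 and -0.094 (mean 0.22 ± 0.40, limma adjusted p = 0.705), with 4 of 6 animals above 0. In each muscle-type gene the animals lay on both sides of 0.

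The ubiquitous Cox6b1 stood at 0.54, 0.014, -0.68, -0.76, -0.36 and -0.60 (mean -0.31 ± 0.50) and the testis isoform Cox6b2 at -0.34, -0.11, 0.15, -0.76, 0.54 and -0.15 (mean -0.11 ± 0.44). Cox6b1 followed the order of the chain as a whole, with animals 1 and 2 highest, and Cox6b2 did not. Cox4i1, the regulatory subunit that takes part in control by ATP, stood at -0.10, -0.11, -0.14, -0.36, 0.18 and -0.020 (mean -0.092 ± 0.17), and Cox5b, a zinc-binding subunit, at 0.070, 0.053, -0.50, -0.52, -0.15 and -0.49 (mean -0.26 ± 0.28). Cox7b, encoded on the X chromosome, stood at 0.58, 0.96, -0.72, -0.78, -0.63 and -1.21 (mean -0.30 ± 0.86), the widest spread of the complex, with animals 1 and 2 far above the other 4. Cox7c and the testis isoform Cox7b2 had means of -0.13 ± 0.75 and 0.019 ± 0.14.

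Complex V, the ATP synthase, couples a catalytic head to a membrane rotor. Of the head, the gamma subunit Atp5c1 stood at 0.086, -0.26, -0.74, -0.81, -0.77 and -0.50, above 0 in animal 1 alone (mean -0.50 ± 0.35, unadjusted p = 0.00838, limma adjusted p = 0.639). The catalytic beta subunit Atp5b stood at 0.24, 0.0055, -0.90, -0.50, -0.95 and -0.50, with a mean of -0.43 ± 0.48 (limma adjusted p = 0.642). The alpha subunit Atp5a1 stood at 0.051, 0.022, -0.59, -0.22, 0.15 and -0.33 (mean -0.15 ± 0.28). The delta subunit Atp5d stood at 0.11, 0.11, -0.18, -0.15, -0.10 and -0.63 (mean -0.14 ± 0.27), and Atp5o, which links head and stalk, at -0.013, 0.23, -0.42, -0.49, -0.20 and -0.53 (mean -0.24 ± 0.30). In each of these head and stalk genes animals 3, 4 and 6 lay below 0. Of the membrane part, Atp5j2 stood at -0.14, -0.050, -0.36, -0.40, -0.50 and -0.25, below 0 in every animal (mean -0.28 ± 0.17, limma adjusted p = 0.639). The stalk subunit Atp5pb stood at 0.038, -0.25, -0.90, -0.89, -0.74 and 0.25, below 0 except in animals 1 and 6, for a mean of -0.42 ± 0.50. Atp5g3, the isoform of the rotor ring measured here, stood at 0.72, -0.11, -0.73, -0.90, -0.13 and -0.15 (mean -0.22 ± 0.57). Animal 1 alone was above 0 in it. Atp5mpl, Atp5k, Atp5l, Atp5j and Atp5h, small subunits of the stalk and membrane part, had means of -0.32 ± 0.35, -0.24 ± 0.17, -0.060 ± 0.61, -0.11 ± 0.43 and -0.017 ± 0.78. The complex had 2 means above 0, Atp5md at 0.047 ± 0.52 and the epsilon subunit Atp5e at 0.012 ± 0.41.

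Few genes had one sign in every adult. Of 72 genes with 6 values, Cox6c, Cox8a and Atp5j2 lay below 0 in 6 of 6, where 2.82% of all such features did, and Cox5a lay above 0 in 6 of 6, where 3.45% did. In count these shares of the chain, 3 and 1 of 72, were near the background. With the Cy3 arrays turned none of these 4 kept one sign in every animal, since Cox5a was below 0 in animal 2 and the other 3 were above 0 in animal 1.

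The adult values as deposited differed between the 2 dye orientations. Whether that was an effect of the dye cannot be told, since the labels do not give the direction of the Cy3 columns. With the mutant in Cy5, 48 of 73 genes lay below 0 (65.8%, against 57.0% of all features), with a median of -0.11 (all features -0.068). With the mutant in Cy3, 59 did (80.8%, against 41.9% of all features), with a median of -0.21 (all features 0.080). In 35 genes (47.9%) both means lay below 0, against 14.7% of 16623 features, and in 1 gene, Ndufaf5, both lay above, against 15.6%. Across the 73 genes the means of the 2 orientations ran against each other, with a Spearman correlation of -0.42 over genes that share arrays, animals and pool. Cox8b showed this most plainly. With the mutant in Cy5 it stood at -0.0030, 1.17, 1.23, 1.04, 0.92 and 0.77 in animals 1 to 6, and with the mutant in Cy3 at -0.47, -0.58, -0.66, -0.77 and -0.96 in animals 1, 2, 3, 4 and 6. Its means of 0.86 ± 0.45 and -0.69 ± 0.19 each passed within their own orientation (limma adjusted p = 0.0339 and 0.0424), on opposite sides of 0. Ndufa6 and Ndufaf1 passed in Cy3 alone, at -1.05 ± 0.40 and -0.77 ± 0.30 (limma adjusted p = 0.0290 and 0.0453), where Cy5 gave 0.048 ± 0.25 and 0.63 ± 0.49. Atp5pb passed in Cy5 alone, at -0.78 ± 0.48 (limma adjusted p = 0.0474), against 0.087 ± 0.85 in Cy3. In all, 1106 features (6.55%, of which 5.88% above 0 and 0.663% below) passed in Cy5 alone and 699 (4.19%, of which 0.0898% above and 4.1% below) in Cy3 alone. Uqcrc2, Atp5c1, Cox6c and Cox7a2 lay below 0 in both, at -0.73 ± 0.62, -0.63 ± 0.52, -0.50 ± 0.50 and -0.55 ± 0.59 with the mutant in Cy5 and -0.40 ± 0.50, -0.29 ± 0.17, -0.40 ± 0.17 and -0.32 ± 0.30 in Cy3.

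If the columns with the mutant in Cy3 were instead turned in sign, 38 of 73 genes lay below 0 (52.1%, against 60.9% of all features). Their median was -0.017, against -0.092 over all features. Then 5 genes passed, all above 0: Ndufaf3 at 0.99, Cox8b at 0.79, Ndufaf1 at 0.72, Atp5e at 0.56 and Ndufa6 at 0.49 (limma adjusted p between 0.0066 and 0.0373), as did 1760 features (10.3%, of which 9.41% above 0 and 0.921% below). The lower position of the group was thus seen with the direction taken here and not with the turned one. The arrays with the mutant in Cy5 do not depend on that choice.

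**Figure D3:**
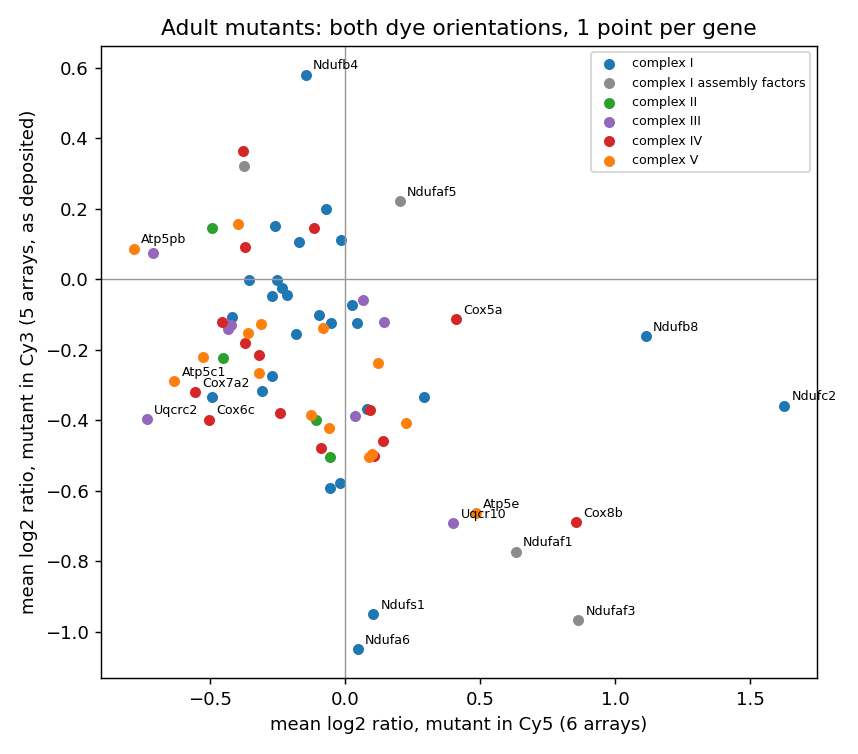
Mean log2 ratio of each gene with the mutant in Cy5 (x axis, 6 arrays) and with the mutant in Cy3 (y axis, 5 arrays, as deposited), coloured by complex. The lower left quadrant holds 35 genes below 0 in both, with Uqcrc2 and Atp5c1 far to the left, and Cox8b, Ndufaf1 and Ndufaf3 lie at lower right with opposite signs.

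In the mutant embryos the chain stood slightly above the pool as a group, with the ATP synthase highest, and again no gene of it passed. Of 73 genes, 59 had a mean above 0, with a median of 0.11 against 0.0046 over all 17242 features, of which 51.0% lay above 0. The 95% interval of a gene's mean reached a median of 0.23 to either side. By limma's adjusted p 0 of 73 genes passed, against 26 features (0.151%, of which 0.058% higher and 0.0928% lower). At an unadjusted p under 0.05, 12 genes lay above and 4 below 0, or 21.9%, against 20.8% of all features, 10.9% above and 9.88% below. The medians were 0.095 for complex I (19 of 27 genes above 0), 0.079 for its assembly factors, 0.061 for complex II (3 of 4), 0.13 for complex III (7 of 8), 0.12 for complex IV (13 of 15) and 0.21 for complex V (14 of 15). Every fetal array had the mutant in Cy5, so genotype and dye cannot be told apart within them. The adult dye profile of a gene is the value with the mutant in Cy5 minus that in Cy3, divided by 2 and averaged over the 5 animals with both. It describes the dye only if the Cy3 columns had already been turned to mutant over pool. If they had not, it holds the adult ratio of mutant over pool instead. With it subtracted the median was 0.060, against 0.042 over all features, and 44 genes lay above 0 (60.3%, against 55.5% of all features).

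Embryos differed as well. The median of the 73 genes was 0.16, 0.10, 0.32, 0.018, -0.0060 and 0.079 in embryos 1 to 6, highest in embryo 3 and at the pool in embryos 4 and 5. Embryo 3 held the highest value for 35 of 73 genes and embryo 5 the lowest for 23. Without embryo 3 the median was 0.089, with 54 genes above 0. Hepatocyte markers did not follow this order: their median was -0.13, 0.21, 0.19, 0.51, 0.086 and 0.39 in embryos 1 to 6, with 10 of 14 tested genes above 0. Endothelial markers lay above 0 in 4 of 4 tested genes, with a median of 0.083 (embryo medians -0.15 to 0.32). Kupffer cell and granulocyte markers lay below 0 in 6 of 8, with a median of -0.18 (embryo medians -0.45 to 0.16). Erythroid markers lay below 0 in 5 of 6 genes (embryo medians -0.28 to -0.041), exocrine pancreas markers in 6 of 6 (-1.29 to -0.57) and cholangiocyte markers in 4 of 5 (-0.79 to 0.42). Their part in the values of the chain was not tested.

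Complex I spread furthest in both directions in the embryos. Ndufb7, an accessory subunit, stood at -0.84, -0.30, -0.68, -0.48, -0.52 and -0.18 in embryos 1 to 6, below 0 in every one. Its mean of -0.50 ± 0.24 (SD, n = 6) was the lowest of the 73 and had the smallest adjusted p, which missed the threshold (limma adjusted p = 0.0836, 95% interval -0.73 to -0.28), and it was -0.31 with the dye profile subtracted. Ndufv1 stood at -0.88, -0.072, -0.33, -0.065, -0.016 and -0.29, also below 0 in every embryo, with embryo 1 far below the others (mean -0.28 ± 0.32, limma adjusted p = 0.247). Ndufa10 stood at -0.55, -0.12, -0.50, -0.20, 0.051 and -0.11, for a mean of -0.24 ± 0.24. On the other side, Ndufa6 stood at 0.16, 0.32, 0.99, 0.46, 0.67 and 0.46, the highest mean of the chain at 0.51 ± 0.29 (limma adjusted p = 0.0891). With the dye profile subtracted it was -0.017. Ndufb5 stood at 0.49, 0.42, 0.53, 0.29, 0.22 and 0.15 (mean 0.35 ± 0.15, limma adjusted p = 0.0891, 0.060 after subtraction). Ndufb4 stood at 0.50, 0.22, 1.01, 0.11, 0.21 and 0.36 (mean 0.40 ± 0.33, limma adjusted p = 0.133), and its dye profile had the opposite sign, so that subtraction gave 0.82.

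The other core subunits of complex I lay near the pool. Ndufs1 stood at 0.15, 0.21, -0.018, 0.069, 0.12 and -0.11 (mean 0.071 ± 0.12), Ndufs7 at -0.30, 0.087, -0.17, -0.049, -0.16 and -0.18 (mean -0.13 ± 0.13) and Ndufs8 at 0.11, 0.18, 0.43, -0.053, -0.089 and 0.10 (mean 0.11 ± 0.19). Embryo 2 alone was above 0 in Ndufs7. Among the accessory subunits not yet named, means ran from -0.081 (Ndufb8) to 0.34 (Ndufb11), with the X-linked pair Ndufa1 and Ndufb11 at 0.26 ± 0.31 and 0.34 ± 0.39, Ndufc2 at 0.27 ± 0.38 and Ndufc1 at 0.10 ± 0.32.

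Complex II had the median nearest to 0 of the 5 complexes. Sdha stood at 0.27, 0.10, -0.16, 0.38, 0.19 and -0.049 (mean 0.12 ± 0.20) and Sdhb at -0.11, -0.084, 0.19, 0.018, -0.043 and 0.041 (mean 0.0020 ± 0.11). Sdhc stood at 0.046, -0.070, -0.17, -0.11, -0.43 and 0.067 (mean -0.11 ± 0.18) and Sdhd at 0.28, 0.076, 0.056, 0.83, -0.20 and -0.075 (mean 0.16 ± 0.36), where embryo 4 was far above the others. Each gene had embryos on both sides of 0. Of the assembly factors, Ndufaf7 had a mean of -0.22 ± 0.22 and the other 3 lay between 0.043 and 0.19.

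In complex III, Uqcr10, a small subunit, stood at 0.77, 0.28, 0.76, 0.034, 0.42 and 0.40, above 0 in 6 of 6 (mean 0.45 ± 0.29, limma adjusted p = 0.101), but at -0.17 with the dye profile subtracted. Uqcrh, the hinge protein, stood at 0.36, 0.29, 0.80, 0.14, -0.0060 and 0.17 (mean 0.29 ± 0.28, limma adjusted p = 0.187), and Uqcr11 at 0.059, 0.13, 0.48, 0.042, 0.041 and 0.22 (mean 0.16 ± 0.17). In these 3 small subunits embryo 3 was at or near the top. Uqcrc1 stood at -0.24, -0.048, -0.10, -0.12, -0.18 and -0.21, below 0 in every embryo within a narrow range (mean -0.15 ± 0.073, limma adjusted p = 0.228). The other core protein, Uqcrc2, stood at 0.49, 0.12, 0.34, 0.16, -0.25 and 0.19 (mean 0.17 ± 0.25), below 0 in embryo 5 alone. The electron carriers of the complex lay at the pool, with Uqcrfs1 at -0.16, -0.0050, 0.014, -0.082, 0.28 and 0.045 (mean 0.016 ± 0.15) and Cyc1 at 0.20, -0.059, 0.23, 0.089, -0.10 and -0.17 (mean 0.032 ± 0.16). Uqcrq had a mean of 0.10 ± 0.29.

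In complex IV, Cox5b stood at 0.45, 0.24, 0.32, 0.14, 0.11 and 0.22, above 0 in 6 of 6 (mean 0.25 ± 0.12, limma adjusted p = 0.125). Several small subunits had their 2 highest values in embryos 1 and 3, a feature picked out after the values were seen. Cox7a2 stood at 0.77, 0.11, 1.202, 0.016, -0.12 and 0.17, Cox7b at 0.67, 0.071, 1.06, 0.0060, -0.085 and 0.36 and Cox7c at 0.49, 0.16, 0.77, -0.062, 0.073 and 0.26. Their means were 0.36 ± 0.51, 0.35 ± 0.45 and 0.28 ± 0.30, and none passed (limma adjusted p = 0.296, 0.259 and 0.22). Cox6c had a fetal mean of 0.27 ± 0.42. Cox7b2, a testis isoform, stood at -0.17, -0.51, -0.41, -0.38, 0.25 and -0.13, with embryo 5 as the only value above 0, and had the lowest mean of the complex at -0.23 ± 0.27.

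The isoforms of complex IV named here each had embryos on both sides of 0. Cox6a1 stood at 0.46, -0.12, 0.090, 0.023, -0.10 and 0.052 (mean 0.067 ± 0.21) and Cox6a2 at -0.26, -0.14, -0.035, -0.12, -0.29 and 0.47 (mean -0.063 ± 0.28), each with one embryo far above the others, embryo 1 in the first and embryo 6 in the second. Cox8a stood at 0.40, -0.021, 0.17, -0.053, 0.037 and 0.077 (mean 0.10 ± 0.17) and Cox8b at 0.38, -0.11, -0.037, 0.14, 0.66 and -0.31 (mean 0.12 ± 0.35). Cox7a1 stood at 0.27, 0.14, 0.33, 0.10, 0.21 and -0.49 (mean 0.091 ± 0.30), with embryo 6 alone below 0. Cox6b1 stood at 0.14, 0.16, 0.35, 0.10, -0.052 and 0.11 (mean 0.13 ± 0.13) and Cox6b2 at 0.52, 0.11, 0.024, 0.25, 0.16 and -0.12 (mean 0.16 ± 0.22). Cox4i1 stood at -0.28, 0.15, 0.32, 0.036, 0.27 and -0.028 (mean 0.075 ± 0.22) and Cox5a at 0.32, 0.10, 0.0070, -0.024, 0.033 and 0.079 (mean 0.085 ± 0.12), the latter pulled up by embryo 1.

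In complex V, Atp5a1 stood at 0.44, 0.33, 0.12, 0.31, 0.32 and 0.13, above 0 in every embryo on the mean of its 3 probes (mean 0.28 ± 0.12, limma adjusted p = 0.104), and at -0.014 with the dye profile subtracted. Atp5c1 stood at 0.38, 0.26, 0.36, 0.18, 0.011 and 0.062 (mean 0.21 ± 0.15, limma adjusted p = 0.182), and subtraction gave 0.36. The epsilon subunit Atp5e stood at 0.26, 0.074, 0.80, 0.063, 0.53 and 0.21 (mean 0.32 ± 0.29, limma adjusted p = 0.163), and subtraction gave -0.24. The highest mean of the complex, 0.48 ± 0.62 for Atp5md, a small subunit, came with embryo 3 at 1.59 and embryo 4 at -0.31. Atp5d stood at 0.12, 0.035, 0.020, 0.015, 0.12 and 0.030, above 0 in 6 of 6 at a mean of only 0.058 ± 0.051. Atp5b stood at -0.35, 0.20, -0.15, 0.13, -0.26 and -0.025 (mean -0.075 ± 0.22) and Atp5o at -0.24, 0.22, 0.21, 0.13, 0.065 and 0.11 (mean 0.083 ± 0.17). Atp5b had the only mean of the complex below 0. Atp5g3 stood at 0.38, -0.56, -0.039, -0.088, 0.52 and -0.14 (mean 0.013 ± 0.39), with embryos 1 and 5 above 0 and embryo 2 far below. The small subunits Atp5mpl, Atp5k, Atp5l, Atp5j, Atp5j2 and Atp5h had means of 0.30 ± 0.33, 0.12 ± 0.41, 0.32 ± 0.41, 0.22 ± 0.26, 0.18 ± 0.47 and 0.038 ± 0.23.

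In all, 11 of 73 genes lay above 0 in 6 of 6 embryos, where 8.34% of features did, and 3 lay below 0 in 6 of 6, where 7.50% did. With the adult dye profile subtracted, 20 genes passed, 11 above 0 and 9 below, as did 4986 features (30.3%, of which 15.4% above and 15% below). That fit treats the profile as known exactly and leaves out its own error, and it rests on the direction taken here for the Cy3 columns. Among those that passed were Ndufb4 at 0.82, Atp5pb at 0.67, Atp5c1 at 0.36 and Uqcr11 at 0.30 above 0 and Ndufa10 at -0.51 and Ndufs1 at -0.45 below. If fetal rows were named as deposited, without the shift, 35 of 73 genes lay above 0, with a median of -0.0070.

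The adults and embryos were then compared on arrays with the mutant in Cy5, to ask where the ratio of mutant over pool differed with age. Age, pool, array series and the mix of sexes (adults male only, embryos of both sexes) changed together and cannot be told apart. In 55 of 73 genes the adult value was lower, with a median difference of -0.25 against -0.022 over all 16314 features, and no gene passed, against 23 features (0.141%, of which 0.0919% higher and 0.049% lower in the adults). At an unadjusted p under 0.05, 18 genes were lower and 3 higher in the adults, or 28.8%, against 20.2% of features, 9.24% lower and 11% higher. The median difference was -0.23 for complex I, -0.30 for complex II, -0.26 for complex III, -0.33 for complex IV and -0.35 for complex V, while the assembly factors stood at 0.30.

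Atp5pb showed the smallest adjusted p. With the mutant in Cy5 the adults stood at 0.079, -0.61, -1.23, -1.18, -0.74 and -0.997 and the embryos at 0.64, 0.15, 0.36, 0.20, -0.17 and 0.24. Every adult except animal 1 lay below every embryo. The means were -0.78 ± 0.48 and 0.23 ± 0.26, and the difference of -1.01 missed the threshold (limma adjusted p = 0.0694, 95% interval -1.49 to -0.54). Atp5c1 stood at 0.18, -0.23, -1.05, -1.201, -0.77 and -0.71 in the adults, with animal 1 again inside the fetal range (difference -0.84, limma adjusted p = 0.0796). Uqcrc2 stood at 0.43, -0.87, -1.22, -1.28, -0.72 and -0.74 in the adults, and its difference was -0.91 (limma adjusted p = 0.0924). Uqcr11 differed by -0.59, Cox7a2 by -0.91 and Cox6c by -0.77 (limma adjusted p = 0.095, 0.124 and 0.126). Of complex I, Ndufa1 stood at 0.048, 0.0035, -0.31, -0.33, -0.64 and -0.40 in the adults and 0.63, 0.035, 0.69, 0.11, -0.040 and 0.15 in the embryos, and differed by -0.53 (limma adjusted p = 0.125). Ndufb4 and Ndufc1 differed by -0.55 and -0.60 (limma adjusted p = 0.125 and 0.149). In complex II, Sdhb, Sdhc, Sdha and Sdhd differed by -0.45, -0.38, -0.23 and -0.22, all toward lower adult values.

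Higher in the adults were Ndufa10 and Cox8b. Ndufa10 stood at 0.18, 0.18, 0.083, 0.32, 0.75 and 0.24 in the adults. On the mean of its 2 probes every adult lay above every embryo, as in 1.14% of features (difference 0.53, limma adjusted p = 0.0964). Neither probe alone separated the groups. In one, adults 2 and 3 stood at -0.39 and -0.38, inside the fetal range of -0.44 to -0.19. In the other, adult 6 at 0.35 lay below embryo 5 at 0.39. Cox8b differed by 0.74 (limma adjusted p = 0.111), and Cox5a by 0.33 (limma adjusted p = 0.224). In 0 genes did every adult lie below every embryo, as in 1.15% of features.

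The outcome turned on adult animal 1. Without it 11 genes passed, 10 lower in the adults (Ndufb3, Sdhb, Uqcr11, Uqcrc2, Cox6c, Cox7a2, Atp5c1, Atp5d, Atp5mpl and Atp5pb) and 1 higher (Cox8b), and 1224 features did (7.59%, 2.71% lower and 4.88% higher). The differences of Atp5pb and Uqcrc2 were then -1.19 and -1.14 (limma adjusted p = 0.00842 and 0.00847). Without any other single adult or embryo, 0 genes passed. With the adult means over both dyes the median difference was -0.31 and 58 of 73 genes were lower, but a dye effect shared by the fetal arrays no longer cancels there. With fetal rows named as deposited, 9 genes passed, as did 1579 features (9.38%, of which 6.45% higher and 2.93% lower in the adults). Across the 73 genes the adult Cy5 mean and the fetal mean had a Spearman correlation of 0.16. The adult Cy3 mean, as deposited, and the fetal mean had one of -0.50, which would change sign if those columns were turned. The first pair shares the dye of the mutant and the second has it opposite, but the part of the dye was not tested.

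**Figure D4:**
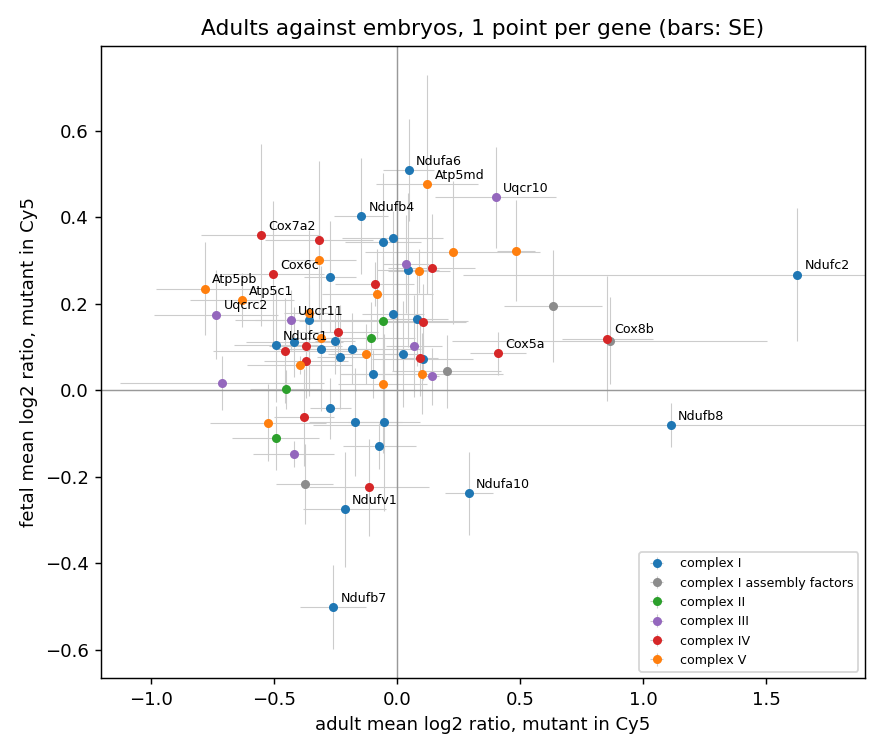
Mean log2 ratio (mutant over pool) of each gene in the adults with the mutant in Cy5 (x axis) against that in the embryos (y axis), coloured by complex, with bars of 1 SE over 6 animals each (some run past the axis). The upper left quadrant holds 36 genes below 0 in the adults and above 0 in the embryos, among them Atp5pb, Uqcrc2 and Atp5c1, and Ndufa10 and Ndufb8 lie at lower right.

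Female and male mutant embryos were compared as well. In 53 of 73 genes the females were lower, with a median difference of -0.12 (all features near 0), and no gene passed, against 2 of 17212 features (0.0116%). At an unadjusted p under 0.05, 1 gene was lower, Cox7a2, and 0 higher, against 3.18% of features (1.64% lower and 1.54% higher). Cox7a2 had means of 0.023 ± 0.15 in females and 0.69 ± 0.55 in males (n = 3 each), a difference of -0.67 (limma adjusted p = 0.998). In 7 genes every female lay below every male (Ndufb5, Ndufs4, Ndufs8, Uqcrh, Cox5b, Cox6b1 and Atp5c1), where 4.80% of features did, and in 1, Ndufaf7, every female lay above every male, where 4.58% did. Ndufb5 had means of 0.22 ± 0.067 and 0.48 ± 0.059, Atp5c1 of 0.083 ± 0.084 and 0.33 ± 0.068, and Uqcrh of 0.10 ± 0.092 and 0.49 ± 0.27, in females and males.

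The sexes were unequal in their pool label, since embryos 1 and 2 had the pool labelled male and all females the pool labelled female. Without embryo 3 the median difference was -0.069, with 47 of 73 genes lower in females. On arrays with the pool labelled female alone, which leave embryo 3 as the only male, it was -0.27, with 51 lower. Atp5l and Atp5k both differed by -0.54 (unadjusted p = 0.0543 and 0.0562), Ndufa5 by -0.58 and Cox7c by -0.38, all lower in females. The 2 probes of Ndufa5 had fetal means of 0.26 and -0.41, and in embryo 6 they stood at 0.24 and -2.21. Ndufa10 and Ndufv1 both differed by 0.30 toward higher values in females, where males 1 and 3 stood lowest (unadjusted p = 0.123 and 0.231). All of these had limma adjusted p = 0.998. Of the X-linked genes Ndufa1, Ndufb11 and Cox7b differed by -0.37, -0.35 and -0.51.

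**Figure D5:**
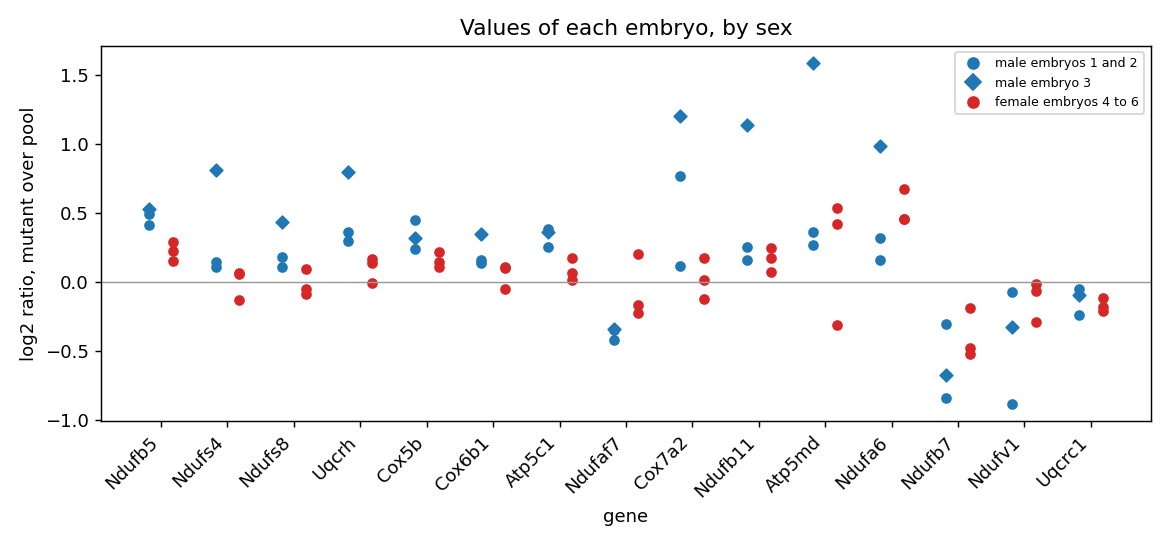
Log2 ratio (mutant over pool) in each embryo for 15 genes of the chain, males in blue (embryo 3 as diamonds) and females in red. In Ndufb5 and the next 6 genes every female lies below every male. Embryo 3 is the highest point in Ndufb5, Ndufs4, Ndufs8, Uqcrh, Cox6b1, Cox7a2, Ndufb11, Atp5md and Ndufa6.

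Genes that feed or build the chain were read from lists, and none of their members passed in any of the 4 comparisons. Of 28 further assembly factors, 12 lay below 0 in the adults (median 0.024) and 15 above 0 in the embryos (median 0.010), with members on both sides. Surf1, needed to assemble complex IV, stood at 0.0060, -0.64, -0.73, -0.78, -1.21 and -0.62 in the adults (mean -0.66 ± 0.39, limma adjusted p = 0.639) and had a fetal mean of 0.036 ± 0.072. Cox20, another complex IV factor, and Uqcc2, a complex III factor, had fetal means of 0.33 ± 0.14 and -0.58 ± 0.36 (limma adjusted p = 0.0891 and 0.0906). Of 19 genes of pyruvate dehydrogenase and the citric acid cycle, 12 lay below 0 in the adults (median -0.087) and 15 above 0 in the embryos (median 0.14). Sucla2, a subunit of succinyl-CoA synthetase, had means of -0.34 ± 0.33 in the adults and 0.21 ± 0.13 in the embryos, and Idh3b, of isocitrate dehydrogenase, 0.25 ± 0.13 in the embryos. Of 12 carriers and coupling genes, 10 lay below 0 in the adults (median -0.19) and 8 above 0 in the embryos (median 0.096). Slc25a3, the phosphate carrier that supplies the ATP synthase, had means of -0.32 ± 0.48 and 0.32 ± 0.28.

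Of 17 genes of ubiquinone synthesis and electron entry, 10 lay below 0 in the adults (median -0.071) and 9 above 0 in the embryos (median 0.014). The regulators of these genes and of mitochondrial DNA had a median of -0.037 over 18 genes in the adults and 0.022 over 16 in the embryos. Among them Nrf1, the factor named above, had means of 0.14 ± 0.14 and -0.010 ± 0.052. The 6 genes of mitochondrial redox defence lay below 0 in the adults in 6 of 6 (median -0.16) and in the embryos in 6 of 6 (median -0.14), and Txnrd2, a mitochondrial thioredoxin reductase, had a fetal mean of -0.30 ± 0.19.

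Probes of one gene did not always give the same sign. Of 21 genes with more than 1 probe, 8 had all probes on one side of 0 in the adults and 16 in the embryos. The fetal row shift was itself chosen by how well probes of one gene correlated in the embryos, so the fetal agreement is no independent check. The range between probes of a gene had a median of 0.35 in the adults and 0.11 in the embryos, so in the adults it exceeded the median shift of the chain.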

How the data were processed

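Liver RNA of 6 adult and 6 fetal Afp knockout mice was measured against wild-type pools on 17 arrays. The authors deposited 1 log2 ratio per probe and array. The base of the logarithm was inferred from the values, while for image analysis, normalization and genome build the sources used here give nothing. Columns with the mutant in Cy3 were used as deposited, as if already turned to mutant over pool. Fetal rows were named by the probe 11 rows earlier for probes up to 20000, the offset at which fetal values of probes of the same gene correlated best, and 794 fetal rows were left unnamed. Arrays of 1 animal were averaged, then probes of 1 gene. Ratios were tested with limma 3.58.1 (lmFit and eBayes, R 4.3.3) against 0 or between groups, over all features with values in 4 of 6 animals (for sex, 2 of each), with Benjamini-Hochberg adjustment over all of them and a threshold of 0.05. Whether replicates came from separate litters is not stated, so p-values measure the spread between these animals. The fit was tested on simulated data without a dye effect, in which 200 features were shifted by 2 log2 units. It recovered between 87.5% and 97.5% of them in the comparisons. Shifts as small as those of the chain were not simulated. Summaries and plots used Python 3.11.15, pandas 2.3.3 and matplotlib 3.10.9.

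The members and lists were chosen with earlier results of these data known. Every member could be named. Values per animal were given for complex II, the core subunits, the isoform pairs and the members with the smallest p on each side of 0 in each complex, and of each companion list the genes with the smallest p could be named. Alternatives covered centring, scaling, single probes, values beyond 10, robust fits, missing values, single animals, dye orientation, row naming, pool label and the replicate block. Promoters came from RefSeq (GRCm38.p6).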

Additional observations from a re-analysis of the deposited data

Results flagged for a closer look

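Of 160 sets of 6 animals examined for a single value far from the rest, 15 had one, and chance alone gives about 1 in 20. In the adults these were Ndufc2 in animal 1 (5.58), Ndufb8 in animal 2 (3.87), Ndufa8 in animal 3 (-0.96) and Ndufa10 in animal 5 (0.75). The first pair each rest on a probe with a single value beyond 10, and animal 5 was measured in Cy5 alone.

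In the embryos 5 of the 11 were values of embryo 3, all of them the highest of their gene: Ndufb11 (1.14), Ndufb2 (1.13), Ndufs4 (0.81), Ndufaf5 (0.44) and Ndufb8 (0.16). Embryo 1 gave the lowest value of Ndufv1 (-0.88) and of Atp5o (-0.24) and the highest of Cox5a (0.32) and Cox6a1 (0.46). Embryo 6 gave the highest value of Cox6a2 (0.47) and the lowest of Cox7a1 (-0.49), both muscle-type subunits of complex IV.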

How the results depend on the processing

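In the adults, where 0 features and 0 members of the chain passed limma's adjusted p, 1760 and 5 passed with the Cy3 arrays turned in sign, 1106 and 2 with the mutant in Cy5 alone, and 699 and 3 with it in Cy3 alone. Leaving out any adult kept both counts at 0 and the median of the 73 genes between -0.20 and -0.12. In the embryos 26 features passed, against 17 with arrays scaled, 88 with each probe on its own, 83 without values beyond 10, 81 with a robust fit, 61 with a value required in every animal, 4986 with the dye profile subtracted (20 members), 2 with the pool labelled female and 6 with the pool labelled male. Leaving out any of the 6 embryos left 2 to 5 features, and the median lay between 0.089 and 0.13, while naming rows as deposited gave -0.0070. Between adults and embryos 23 features passed, against 42 without values beyond 10, 40 with a robust fit, 36 with every animal required, 1579 with rows named as deposited (9 members) and 9 with adult means over both dyes. Leaving out 1 animal gave 4 to 1224 features and 0 to 11 members, with the rises without adult 1 (1224) and embryo 5 (78), and the median lay between -0.32 and -0.22. Between the sexes 2 features passed, against 0 with arrays scaled, without values beyond 10 or with every animal required, 1 with a robust fit and 25 with the pool labelled female, where the median was -0.27. Leaving out 1 embryo gave 0 to 4 features and a median between -0.17 and -0.069. The cause of these shifts was not tested, beyond fewer samples where an animal was left out. No median of the chain turned in sign except with fetal rows named as deposited, and centring changed no count by over 1.5 times. Title numbers 1, 3 and 5 are shared by adult Cy5 and fetal arrays of different animals, so they do not pair the samples: with that replicate block 2 features and 0 members passed, with a median of -0.17. The dye profile subtraction leaves out the profile's own error and rests on the direction taken here for the Cy3 columns. A value close to background could not be told from a bright one, since ratios alone were given.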
